A study of Mus musculus with 38 samples.

Results

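Deletion of the insulin receptor in hepatocytes was examined in fasted liver by comparing 3 LIRKO mice with 4 IR floxed mice, which together give 7 of the 38 samples of the series. LIRKO mice carry floxed insulin receptor alleles and a Cre recombinase under the albumin promoter, which is active in hepatocytes, so the other cells of the liver keep the receptor. They came from crosses of IR floxed, FoxO1 floxed and albumin-Cre lines. IR floxed mice carry the floxed alleles, and no Cre is named for them. Both groups were male, 11 to 12 weeks old, of a mixed FVB/N and C57Bl/6 background, and fasted, which the labels give once as overnight and once as 24 h. The samples were taken by their titles, all fasted mice of the 2 genotypes were included, and each was a separate mouse with its own number (KO505, KO545 and KO550 for LIRKO, and fl486, fl491, fl542 and fl552 for IR floxed). Where other states are set beside the fasted one, they are LIRKO and IR floxed mice refed for 6 h after the fast (4 of each) or 60 min after a glucose dose (3 of each). Fasted LIRFKO mice, which lack FoxO1 as well as the receptor in hepatocytes, and fasted IR/FoxO1 floxed mice (3 of each) are a further pair of the same sex, age and background. None of these mice is among the 7.

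The insulin receptor is a tyrosine kinase at the cell surface that acts through the docking proteins Irs1 and Irs2, phosphatidylinositol 3-kinase and Akt. Akt phosphorylates the transcription factor FoxO1 and keeps it out of the nucleus, where it would otherwise drive genes such as Igfbp1, G6pc, Pck1, Pdk4 and Irs2. Insulin is low in the fasted state, so a fasted liver with its receptor already has little of this signal, and the comparison asks what receptor loss does under that condition.

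The upstream 250 bases of 3 classical insulin-repressed genes are shown because they differ in the fasted effect described below, Igfbp1 being higher in LIRKO and G6pc and Pck1 not passing the test. They are RefSeq promoters of GRCm38.p6, all on the plus strand: Igfbp1 at chr11:7197537-7197786, G6pc at chr11:101367466-101367715 and Pck1 at chr2:173152823-173153072. Capitals mark the core of the insulin response element, CAAAACA or its reverse complement, found by a search of both strands.
Igfbp1: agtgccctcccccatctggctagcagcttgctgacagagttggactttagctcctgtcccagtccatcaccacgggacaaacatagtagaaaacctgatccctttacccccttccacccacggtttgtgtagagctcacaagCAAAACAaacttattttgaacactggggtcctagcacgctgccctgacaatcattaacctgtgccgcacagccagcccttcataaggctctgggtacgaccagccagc
G6pc: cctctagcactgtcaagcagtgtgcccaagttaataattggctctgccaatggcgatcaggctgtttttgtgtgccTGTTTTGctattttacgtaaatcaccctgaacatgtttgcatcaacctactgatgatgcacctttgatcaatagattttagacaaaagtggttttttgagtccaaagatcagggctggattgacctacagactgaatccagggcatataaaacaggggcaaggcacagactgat
Pck1: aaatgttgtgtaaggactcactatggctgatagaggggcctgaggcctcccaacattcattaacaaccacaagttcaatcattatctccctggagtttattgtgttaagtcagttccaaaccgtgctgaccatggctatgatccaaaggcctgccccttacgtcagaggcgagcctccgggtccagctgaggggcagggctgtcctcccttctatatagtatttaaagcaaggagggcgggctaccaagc
The core lay 108 to 102 bases upstream of the start of Igfbp1 on the same strand and 174 to 168 bases upstream of G6pc on the opposite strand. The FoxO element GTAAACA, the cAMP response element TGACGTCA and the glucocorticoid element TGTTCT were also searched on both strands, and none of the 3 occurred in these windows. No match of any of the 4 occurred in the Pck1 window, and bases further upstream of the 3 genes were not searched. Only exact matches were sought, and the Pck1 window holds ttacgtca, a near match of the cAMP response element. The core was present in 5.56% of 32851 promoters, the FoxO element in 3.17%, the cAMP element in 1.55% and the glucocorticoid element in 16.1%, so a match is a description of the letters only.

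Values are log2 intensities of single dye channels, with column medians from 5.72 to 5.78 over all features. Correlations between columns ran from 0.985 to 0.988 within LIRKO, from 0.986 to 0.991 within IR floxed and from 0.977 to 0.984 between the groups. Between 11644 and 13184 of the 22485 genes of a mouse sat on values that at least 50 genes shared, all between 5.18 and 7.14, so order means little at that end of the scale, and differences that reach it may be too small. Values close to 16 log2 were at the top of the range and are called saturated. Differences are LIRKO minus IR floxed ± SE from limma with dye and array in the model, and each p was corrected over the 22485 genes by the Benjamini-Hochberg method. Of these, 1812 passed at 0.05 (8.06%), 930 higher in LIRKO (4.14%) and 882 lower (3.92%), around a median of 0.00 over all genes. The median size was 0.61 log2 among the higher genes and 0.70 among the lower ones, and 158 higher and 246 lower genes differed by more than 1 log2. With 1 mouse left out the count ran from 1041 to 1601, the low values coming without KO550 (1041), KO505 (1089) and fl486 (1180). Because samples are whole liver, fewer cells of a type and less RNA per cell cannot be told apart.

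**Figure D1:**
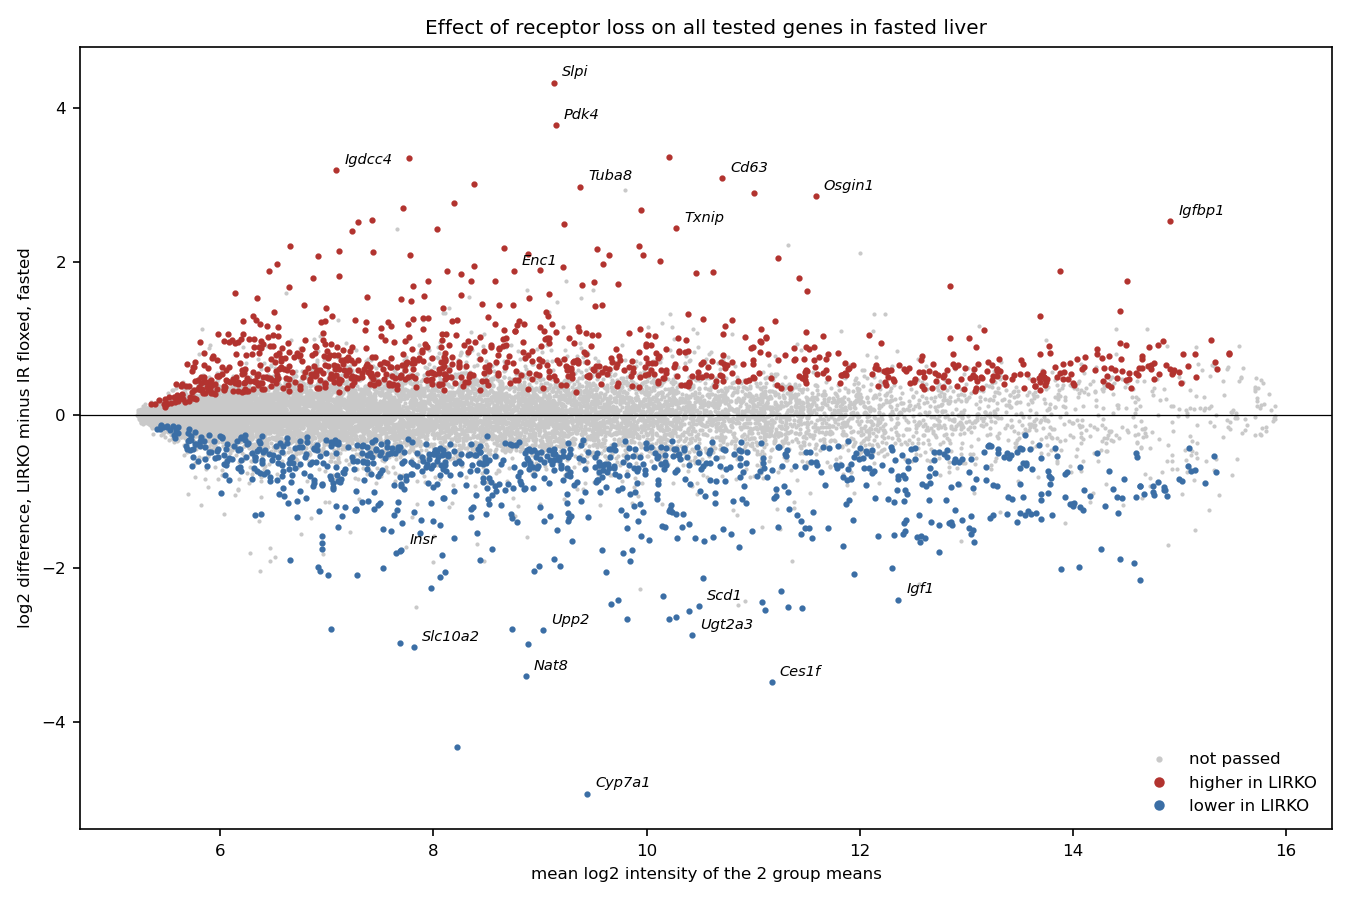
Difference between 3 LIRKO and 4 IR floxed fasted livers (log2, vertical axis) against the mean level of both groups (log2 intensity, horizontal axis), 1 point a gene. Red points are the 930 genes higher in LIRKO and blue points the 882 lower ones at an adjusted p under 0.05, and the extremes are Slpi at 4.33 and Cyp7a1 at -4.94.

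The receptor transcript was lower in LIRKO, and most of the signalling genes around it did not pass. Insr had 6.30, 7.40 and 6.79 log2 in LIRKO livers, against 8.58, 9.04, 8.14 and 8.51 in IR floxed livers. All LIRKO values lay below all floxed ones, as for 7.04% of all genes (7.16% lay above), a difference of -1.76 ± 0.23 (adjusted p = 1.32e-05, 3.38-fold lower). All 3 probes of Insr were lower on average in LIRKO, by -1.74 to -1.02, and where they lie relative to the deleted exons was not analysed here. Of 25 measured insulin signalling genes, 3 rose and 3 fell, against 8.06% of all genes passing, with a list median of 0.01. The count of every other list is likewise set beside the 4.14% of all genes that rose and the 3.92% that fell. These shares include the many genes on shared low values. With only genes above the median level tested, 988 rose and 982 fell out of fewer genes. The shares over all genes are therefore low for lists of well expressed genes. Of the insulin signalling genes, 1 to 2 rose with 1 mouse left out (1 without KO545) and 3 fell. Besides Insr, the falls were Pik3r1, the regulatory subunit of phosphatidylinositol 3-kinase (-1.13 ± 0.22, adjusted p = 0.00124), and Rptor, the scaffold of mTOR complex 1 (-0.37 ± 0.08, adjusted p = 0.00373). Pik3r1 ran from 6.56 to 6.92 in LIRKO and from 7.49 to 8.57 in IR floxed livers, with no overlap.

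Socs3, a feedback inhibitor of cytokine and insulin receptor signalling, rose by 1.34 ± 0.27 (adjusted p = 0.00249), with 9.02 to 10.20 log2 in LIRKO and 8.21 to 8.63 in IR floxed livers. Irs2 had 10.96, 11.61 and 11.14 log2 in LIRKO livers, against 10.02, 10.06, 10.31 and 10.37 in IR floxed livers. The groups did not overlap, and the difference of 1.05 ± 0.29 passed (adjusted p = 0.0207). The call for Irs2 was lost without KO545 (adjusted p = 0.0955), KO550 (0.0501) or fl486 (0.0691). The remaining rise in the list, Rictor of mTOR complex 2, was 0.49 ± 0.15 (adjusted p = 0.0443), and it was lost whichever mouse was left out (0.0646 to 0.315). Irs1 was 8.65 to 8.77 in LIRKO and 8.34 to 8.91 in IR floxed livers (0.08 ± 0.24, adjusted p = 0.906). Foxo1 itself was 9.94 to 10.58 in LIRKO and 9.98 to 10.50 in IR floxed livers (0.04 ± 0.45, adjusted p = 0.979). Its SE is pooled over all groups in the model, among them an IR/FoxO1 floxed library with a far lower Foxo1 value (fl523, below). The SD of Foxo1 was 0.32 in LIRKO and 0.25 in IR floxed livers.

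Targets of FoxO1 were split. Of 23 measured, 4 rose, 1 fell and 18 did not pass, with a median of 0.09 (2 to 4 rises with 1 mouse left out, 2 without KO545, and 0 falls without KO550), and the 4 included some of the most strongly raised genes in the comparison. Pdk4, the kinase that shuts off pyruvate dehydrogenase, had 10.77, 10.88 and 11.51 log2 in LIRKO livers, against 7.49, 6.49, 7.82 and 7.15 in IR floxed livers. These groups stood about 3 log2 apart at their closest, and the fitted difference was 3.78 ± 0.33 (adjusted p = 4.81e-08, 13.7-fold). Txnip, a thioredoxin-binding arrestin that restrains glucose uptake, had 11.40, 11.45 and 11.55 log2 in LIRKO livers, against 8.84, 8.84, 9.24 and 9.41 in IR floxed livers. Both groups were tight and apart, by 2.44 ± 0.22 (adjusted p = 8.97e-08, 5.42-fold).

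Igfbp1, a secreted binding protein of insulin-like growth factors, had 15.90, 15.97 and 15.999 log2 in LIRKO livers, against 12.82, 13.66, 14.54 and 14.41 in IR floxed livers. All 3 LIRKO values were saturated, so the difference of group means, 2.10 log2, is a lower bound, at least 4.29-fold. The fit gave 2.53 ± 0.74 (adjusted p = 0.0319), which was lost in 6 of 7 fits with 1 mouse out (0.0509 to 0.154, passing only without KO505). Irs2, described above, is the fourth rise. The single fall among the targets was Apoc3, an apolipoprotein that slows triglyceride clearance (-0.74 ± 0.19, adjusted p = 0.0133), with 14.59 to 15.19 log2 in LIRKO and 15.60 to 15.87, 1 mouse of them saturated, in IR floxed livers, and it was lost without KO550 (0.13) or fl486 (0.0703).

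No enzyme of glucose output passed as higher in fasted LIRKO livers. G6pc, the glucose-6-phosphatase that releases glucose, had 12.31, 13.35 and 12.85 log2 in LIRKO livers, against 13.90, 12.80, 13.34 and 13.32 in IR floxed livers. The groups overlapped (-0.56 ± 0.45, adjusted p = 0.57), and a 95% interval of -1.49 to 0.37 bounds the difference. Pck1, which makes phosphoenolpyruvate from oxaloacetate, had 14.96, 15.86 and 15.79 log2 in LIRKO livers, against 15.86, 15.48, 15.16 and 15.50 in IR floxed livers. It overlapped too (-0.04 ± 0.45, adjusted p = 0.98), with 1 mouse of each group saturated. Ppargc1a, the coactivator of both, was 9.90 to 10.56 in LIRKO and 8.97 to 10.34 in IR floxed livers (0.57 ± 0.41, adjusted p = 0.504). Of 15 gluconeogenic genes none rose, 2 fell and 12 of the 15 had a negative difference (median -0.24). Pcx, the pyruvate carboxylase at the entry of the pathway, fell by 0.65 on the log2 scale (SE 0.15, adjusted p = 0.00492), with 13.04 to 13.38 in LIRKO and 13.61 to 14.12 in IR floxed livers. Gpt2, which converts alanine to pyruvate, was lower by -0.79 ± 0.22 (adjusted p = 0.0261), a call lost without KO505 (0.524), fl486 (0.138) or fl552 (0.0553).

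**Figure D2:**
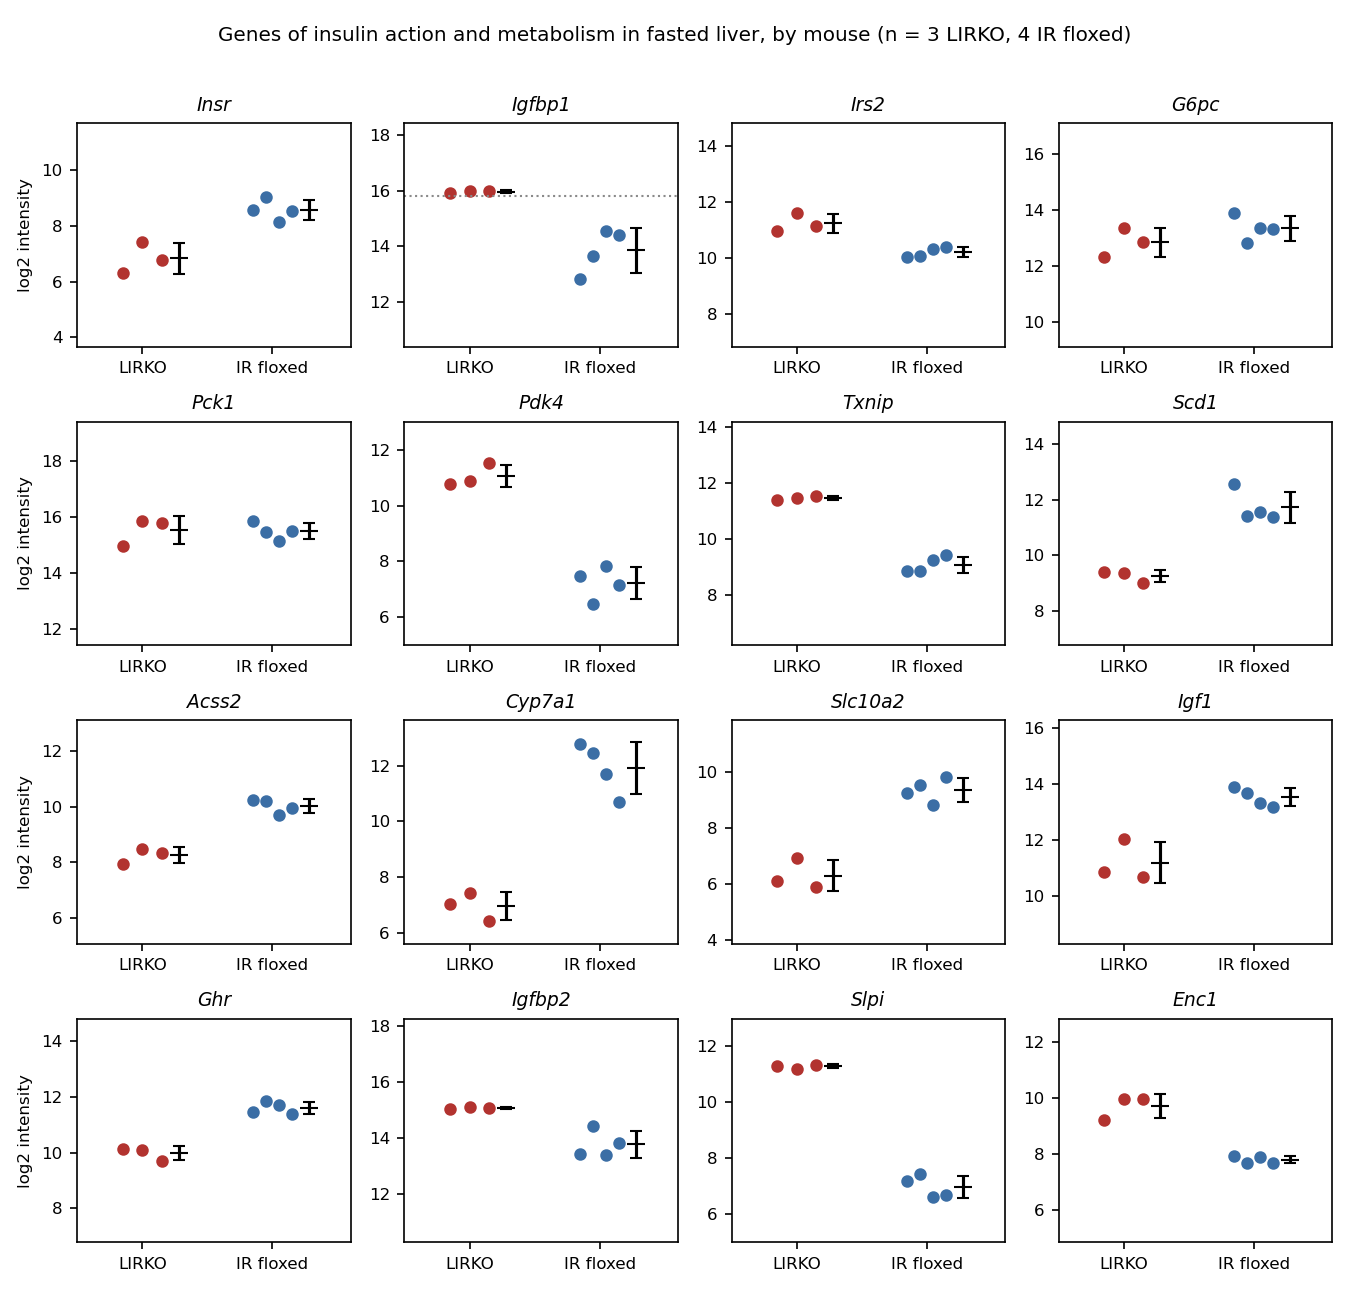
Level (log2 intensity, vertical axis) of 16 genes in each fasted mouse, LIRKO left in red and IR floxed right in blue, with the mean and SD as black bars. Every panel spans the same number of log2 units, and the dotted line marks the level above which values are saturated. Igfbp1, Pdk4, Txnip and Slpi are higher in all LIRKO mice and Cyp7a1, Slc10a2, Igf1, Acss2 and Ghr lower in all of them, whereas G6pc and Pck1 overlap.

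The mice were spread over 5 slides, and 2 of these, numbered 187 and 188, held a mouse of each group. On slide 188 KO505 (Cy5) and fl486 (Cy3) shared 1 array, so genotype and dye cannot be told apart there. On slide 187 KO550 and fl491 were both Cy3, on different arrays. Within these slides LIRKO minus IR floxed, not adjusted for dye, was -2.26 and -2.28 log2 for Insr, 5.02 and 3.28 for Pdk4 and 2.71 and 2.56 for Txnip. It was -5.99 and -5.76 for Cyp7a1 and -3.02 and -3.04 for Igf1, in the same order of slides. The groups do not overlap for these 5 genes, so any pair of mice gives the direction of the whole comparison. The slides are therefore no check of it. For G6pc the slides differed in sign, 0.05 and -1.59, as they did for Pck1, 0.31 and -0.90. With slide as a block in the model 1853 genes passed, against 1812 without it.

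Glycogen genes split. Of 10 measured, 2 rose, 2 fell and 6 did not pass (median 0.31), and with 1 mouse left out 0 to 2 rose (0 without KO550) and 1 to 3 fell. Gys2, the liver glycogen synthase, was 14.53, 14.06 and 15.51 log2 in LIRKO livers, against 11.96, 12.90, 12.95 and 14.42 in IR floxed livers. fl552 reached into the LIRKO range, and the difference was 1.87 ± 0.44 (adjusted p = 0.00751), lost without KO550 (0.0882) or fl486 (0.0865). Ppp1r3b, a subunit that brings protein phosphatase 1 to glycogen, was 11.53 to 13.90 in LIRKO and 13.78 to 14.61 in IR floxed livers (-1.30 ± 0.28, adjusted p = 0.00456). Its relative Ppp1r3c was lower (-2.11 ± 0.51, adjusted p = 0.0089; lost without KO505 at 0.141, KO550 at 0.0742 or fl486 at 0.12). Ppp1r3g, another of these subunits, was higher (2.68 ± 0.74, adjusted p = 0.0225), and 5 of 7 fits with 1 mouse out lost it (0.0517 to 0.101). Of 8 genes that control pyruvate dehydrogenase Pdk4 rose and Pdhx, a structural subunit of the complex, fell (-0.49 ± 0.14, adjusted p = 0.0347; lost in 6 of 7 fits at 0.0528 to 0.188). Among 13 glycolysis genes 1 rose, Hk1 (0.64 ± 0.19, adjusted p = 0.0307), whose 2 probes had opposite signs and whose call was lost in 5 of 7 such fits (0.0517 to 0.271).

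Lipid synthesis genes did not fall together. Of 22 fatty acid and triglyceride synthesis genes, 1 rose and 3 fell, with a median of 0.07. Scd1, the desaturase that makes monounsaturated fatty acids, had 9.39, 9.36 and 9.02 log2 in LIRKO livers, against 12.55, 11.43, 11.56 and 11.36 in IR floxed livers. Every LIRKO mouse was below every floxed one (-2.49 ± 0.50, adjusted p = 0.00211, 5.62-fold lower). Acss2, which makes acetyl-CoA from acetate, had 7.94, 8.49 and 8.33 log2 in LIRKO livers, against 10.23, 10.21, 9.69 and 9.93 in IR floxed livers (-1.88 ± 0.22, adjusted p = 2.28e-06). Srebf1 lay at the low end of the scale in both groups (5.62 to 5.94 in LIRKO, 5.65 to 6.44 in IR floxed), which leaves little room for a fall. Fasn, the fatty acid synthase, was 6.49 to 7.24 in LIRKO and 6.16 to 6.78 in IR floxed livers (0.16 ± 0.29, adjusted p = 0.85). Elovl6, an elongase, was the rise (1.43 ± 0.36, adjusted p = 0.0137; lost without KO505 at 0.109 or KO550 at 0.123), and Agpat2, an acyltransferase of triglyceride synthesis, the last fall (-0.64 ± 0.19, adjusted p = 0.033), lost in 5 of 7 fits with 1 mouse out (0.0724 to 0.386).

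Of 21 cholesterol synthesis genes, 2 fell, none rose and the median was 0.01. Both falls are late reductive or isomerising steps. Tm7sf2, a sterol reductase, had 11.08, 11.22 and 10.65 log2 in LIRKO livers, against 12.84, 12.78, 12.77 and 12.41 in IR floxed livers (-1.71 ± 0.28, adjusted p = 0.000249). Ebp, the sterol isomerase, was 12.21 to 12.73 in LIRKO and 13.03 to 13.63 in IR floxed livers (-0.95 ± 0.16, adjusted p = 0.000301). The groups were apart for both genes, and both calls were kept with every mouse left out in turn.

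Cyp7a1, a bile acid enzyme, had the largest fall of all genes that passed. This rate-limiting enzyme of bile acid synthesis, Cyp7a1, had 7.03, 7.45 and 6.45 log2 in LIRKO livers, against 12.79, 12.44, 11.69 and 10.68 in IR floxed livers. More than 3 log2 separated the nearest mice, and the fitted difference was -4.94 ± 0.57 (adjusted p = 2.23e-06, 30.6-fold lower). Cyp7b1, the oxysterol hydroxylase of the alternative route, had 10.14, 10.79 and 9.16 log2 in LIRKO livers, against 13.08, 13.65, 12.23 and 11.51 in IR floxed livers (-2.51 ± 0.45, adjusted p = 0.000719). Cyp8b1, which directs synthesis to cholic acid, was 7.50 to 10.35 in LIRKO and 10.97 to 11.63 in IR floxed livers (-2.35 ± 0.48, adjusted p = 0.00229, but 0.112 without KO505). Slc10a2, a sodium-dependent bile acid transporter best known from ileum and bile ducts, had 6.08, 6.91 and 5.88 log2 in LIRKO livers, against 9.24, 9.53, 8.80 and 9.81 in IR floxed livers. Its LIRKO values all lay at the crowded low end of the scale, and it differed by -3.03 ± 0.27 (adjusted p = 6.29e-08).

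Over the list of 20 bile acid genes, which does not include Slc10a2, 7 fell and 1 rose, with a median of -0.48, and 4 to 6 fell with 1 mouse left out. Nr1h4, the bile acid receptor FXR, was 11.28 to 11.81 in LIRKO and 11.82 to 12.37 in IR floxed livers (-0.65 ± 0.14, adjusted p = 0.0042, but 0.0537 without KO550). The uptake carriers Slco1a1 (-1.34 ± 0.35, adjusted p = 0.0152, but 0.129 without KO505) and Slco1b2 (-1.06 ± 0.32, adjusted p = 0.0391) were lower, the second in 1 of 7 fits with a mouse out (0.0641 to 0.183 in the 6 that lost it). Cyp27a1, the mitochondrial sterol hydroxylase, was lower by -0.73 ± 0.23 (adjusted p = 0.043), with all 10 probes of that sign, and 6 of 7 such fits lost it (0.0674 to 0.172). Whether these 10 probes differ in sequence was not analysed. Abcc4, an export pump of the basolateral membrane, was the rise (0.70 ± 0.18, adjusted p = 0.0161, but 0.109 without KO505). Of its floxed values, 3 of 4 lay at the low end of the scale. Nr0b2, the repressor SHP that acts on Cyp7a1, was 8.11 to 9.71 in LIRKO and 6.92 to 8.13 in IR floxed livers and did not pass (1.39 ± 0.46, adjusted p = 0.0613).

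Genes of fatty acid oxidation leaned higher. Of 22 measured, 5 rose and none fell, 20 had a positive difference and the median was 0.49. Acot2, a mitochondrial acyl-CoA thioesterase, had 9.27, 8.22 and 9.55 log2 in LIRKO livers, against 6.14, 5.99, 6.61 and 6.92 in IR floxed livers (2.70 ± 0.36, adjusted p = 2.02e-05, 6.51-fold). Ehhadh, the bifunctional enzyme of peroxisomes, was 13.71 to 14.88 in LIRKO and 12.40 to 13.58 in IR floxed livers (1.28 ± 0.32, adjusted p = 0.0115; lost without KO545 at 0.0593 or fl486 at 0.0996). Acadl, a long-chain acyl-CoA dehydrogenase, rose by 0.81 ± 0.21 (adjusted p = 0.0136, but 0.175 without KO505). Acot1 (1.68 ± 0.49, adjusted p = 0.0318) and the pantetheinase Vnn1 (2.09 ± 0.57, adjusted p = 0.0213) were each lost in 5 of 7 fits (0.0777 to 0.137 for Acot1 and 0.0506 to 0.105 for Vnn1). Across these fits 2 to 7 genes of the list passed, 2 of them without KO505. Cpt1a, the gate of mitochondrial oxidation, was 13.60 to 13.96 in LIRKO and 13.39 to 13.85 in IR floxed livers (0.25 ± 0.28, adjusted p = 0.714). Fgf21, the fasting hormone of liver, overlapped as well (0.15 ± 0.54, adjusted p = 0.932).

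Among 14 lipid droplet genes 3 rose and 1 fell (median 0.12). Hilpda, which inhibits the lipase Pnpla2, had 9.18, 8.81 and 9.76 log2 in LIRKO livers, against 7.53, 7.41, 7.46 and 7.38 in IR floxed livers. The floxed values were nearly identical and all LIRKO values more than 1 log2 above them (1.75 ± 0.16, adjusted p = 1.22e-07). Plin2, the coat protein of hepatic droplets, had 15.18, 15.10 and 15.83 log2 in LIRKO livers, the last of them saturated, against 13.46, 13.05, 13.87 and 14.20 in IR floxed livers (1.74 ± 0.32, adjusted p = 0.00094). Cidec, a droplet fusion protein, was 11.71 to 13.05 in LIRKO and 9.70 to 11.19 in IR floxed livers (2.04 ± 0.56, adjusted p = 0.0218), lost without KO550 (0.169), fl486 (0.0768) or fl491 (0.0651). The fall was Fitm1 (-1.34 ± 0.41, adjusted p = 0.04), a droplet-forming protein at the low end of the scale in all LIRKO mice, and 6 of 7 fits lost it (0.0662 to 0.135). None of 16 lipoprotein genes other than Apoc3 passed.

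In the growth hormone axis the receptor Ghr, Igf1 and Igfals fell, and the binding proteins Igfbp1 and Igfbp2 rose. These are the 3 falls and 2 rises among 18 measured genes, 11 of which had a positive difference, with a median of 0.10. Igf1, the growth factor that liver makes under growth hormone, had 10.86, 12.05 and 10.67 log2 in LIRKO livers, against 13.90, 13.69, 13.34 and 13.19 in IR floxed livers. All 5 of its probes were lower in LIRKO, and the difference was -2.41 ± 0.27 (adjusted p = 1.58e-06, 5.30-fold lower). Ghr, the growth hormone receptor, had 10.14, 10.11 and 9.71 log2 in LIRKO livers, against 11.47, 11.86, 11.71 and 11.38 in IR floxed livers (-1.55 ± 0.27, adjusted p = 0.000541). Igfals, which stabilises circulating IGF1, was 6.81 to 7.42 in LIRKO and 8.38 to 8.83 in IR floxed livers (-1.53 ± 0.35, adjusted p = 0.00588). Igfbp2 had 15.05, 15.13 and 15.09 log2 in LIRKO livers, against 13.44, 14.45, 13.41 and 13.83 in IR floxed livers (1.35 ± 0.24, adjusted p = 0.000741). None of these 4 overlapped between the groups, and Igfbp1 is the second rise.

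Genes that male livers express above female ones were lower. All 15 measured had a negative difference, 8 fell, none rose, and the median was -1.5, with 5 to 8 falls when 1 mouse was left out (5 without KO505) and medians from -1.88 to -1.32. Cyp4a12a and Cyp4a12b, near-identical fatty acid hydroxylases whose probes may share signal, fell by 2.55 and 2.52 on the log2 scale (SE 0.39 and 0.36, adjusted p = 0.000125 and 5.83e-05). Cyp4a12a ran from 8.75 to 10.75 in LIRKO and from 11.90 to 12.92 in IR floxed livers. Cyp2d9, a male-biased steroid hydroxylase, had 11.29, 12.21 and 11.88 log2 in LIRKO livers, against 13.24, 14.13, 13.64 and 13.76 in IR floxed livers (-1.79 ± 0.37, adjusted p = 0.00265). Cyp7b1 and Slco1a1, given above, belong to this list too. Elovl3, a male-biased elongase, was 5.65 to 6.66 in LIRKO, all at the low end, and 7.93 to 11.24 in IR floxed livers (-2.97 ± 0.81, adjusted p = 0.0211), lost without KO505 (0.0985), KO550 (0.0937) or fl542 (0.0763). The complement gene C8b (-0.93 ± 0.27, adjusted p = 0.0324) and Keg1 (-1.40 ± 0.43, adjusted p = 0.0402) completed the 8, and C8b was lost in 4 of 7 fits (0.0874 to 0.206) and Keg1 in 6 (0.0654 to 0.166).

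Of 17 female-biased genes 2 rose and none fell, and 14 had a positive difference (median 0.34). Cyp2b9 had 8.97, 7.96 and 9.08 log2 in LIRKO livers, against 6.24, 5.43, 5.53 and 6.51 in IR floxed livers (2.52 ± 0.51, adjusted p = 0.00214). Cyp2b13 had 9.01, 8.13 and 8.85 log2 in LIRKO livers, against 5.74, 5.38, 5.45 and 8.16 in IR floxed livers (2.54 ± 0.44, adjusted p = 0.000511). fl552 stood apart for Cyp2b13 and reached the lowest LIRKO value, and the other 3 floxed mice were at the low end of the scale. Both genes encode drug-metabolizing P450 enzymes.

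**Figure D3:**
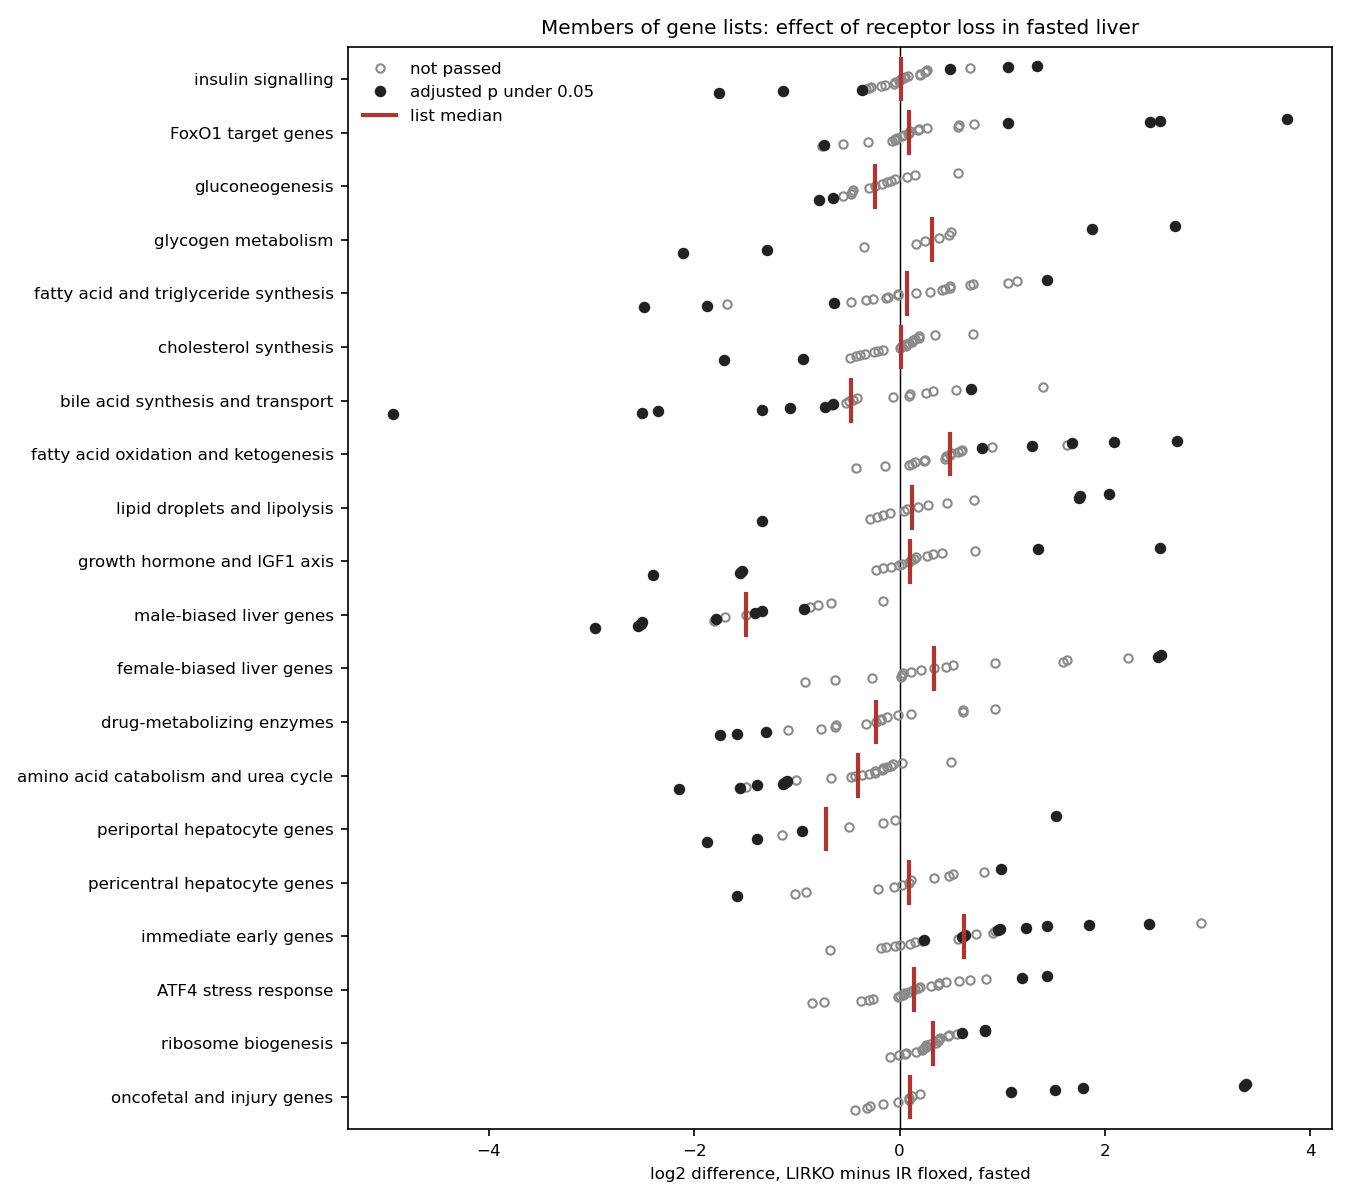
Difference between LIRKO and IR floxed fasted livers (log2, horizontal axis) for the members of 20 gene lists, 1 point a gene, filled where the adjusted p was under 0.05, with the list median as a red bar. The male-biased genes lie wholly left of 0 with a median of -1.5, and immediate early genes have their median at 0.63, while FoxO1 targets (median 0.09) scatter around 0 with a few far to the right.

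Amino acid catabolism leaned lower. Of 24 genes of amino acid catabolism and the urea cycle, 7 fell, none rose and 22 had a negative difference (median -0.40), with 2 to 9 falls when 1 mouse was left out (2 without KO505). Prodh, the proline oxidase, had 12.46, 12.49 and 11.83 log2 in LIRKO livers, against 13.49, 13.46, 13.46 and 13.00 in IR floxed livers (-1.11 ± 0.22, adjusted p = 0.00154), and it was kept with every mouse left out in turn. Kynu, an enzyme of tryptophan breakdown, was 8.54 to 9.46 in LIRKO and 9.51 to 10.45 in IR floxed livers (-1.12 ± 0.24, adjusted p = 0.00301, but 0.0628 without KO505). The other falls were the histidase Hal (-1.39), the cystathionine lyase Cth (-1.55), the tryptophan dioxygenase Tdo2 (-1.14), the urea cycle lyase Asl (-1.10) and the betaine methyltransferase Bhmt (-2.15). All 5 were lost without KO550 (adjusted p = 0.127, 0.087, 0.0882, 0.108 and 0.314 in that order) and without fl486 (0.137, 0.123, 0.157, 0.121 and 0.0906), 4 of them also without KO505 (0.261 for Hal, 0.288 for Tdo2, 0.0596 for Asl and 0.0712 for Bhmt), and Bhmt without fl542 (0.0673). Bhmt was saturated in 2 of 4 IR floxed livers, so its fall may be too small.

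Hepatocytes differ along the lobule, and genes of its portal and central sides were compared. Of 8 periportal genes 3 fell and 1 rose, against 3.92% and 4.14% of all genes, and 7 had a negative difference (median -0.72). With 1 mouse left out 0 to 3 fell, and without KO550 none did. The rise was Cdh1, the epithelial cadherin, with 9.53, 10.13 and 9.53 log2 in LIRKO livers, against 8.77, 8.20, 7.94 and 7.32 in IR floxed livers (1.52 ± 0.31, adjusted p = 0.00228, all 10 probes positive). Hal, above, was a fall, as was the P450 Cyp2f2 (-1.88 ± 0.45, adjusted p = 0.00815; lost without KO550 at 0.122 or fl486 at 0.0589) and the protease Ctsc (-0.95 ± 0.30, adjusted p = 0.0464; lost in 4 of 7 fits at 0.155 to 0.346). Cyp2f2 was saturated in 1 of 4 IR floxed livers, so its fall may be too small. Of 13 pericentral genes 1 rose and 1 fell (median 0.09). The ammonium transporter Rhbg was higher (0.98 ± 0.29, adjusted p = 0.0303; lost in 5 of 7 fits at 0.0547 to 0.449) and Cyp1a2, a P450 of xenobiotic oxidation, lower (-1.58 ± 0.38, adjusted p = 0.00879, but 0.0546 without KO545).

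Among 17 drug-metabolizing enzymes 3 fell and none rose (median -0.23). Aldh1a1, a retinaldehyde dehydrogenase, had 13.71, 13.63 and 12.91 log2 in LIRKO livers, against 15.92, 14.65, 15.13 and 14.74 in IR floxed livers. fl486 was saturated, the groups were apart, and the difference was -1.75 ± 0.28 (adjusted p = 0.000202). Cyp1a2 is a second fall, and Ugt2b1 the last (-1.30 ± 0.40, adjusted p = 0.0433), lost whichever mouse was left out (0.0557 to 0.159).

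Immediate early genes, which cells induce within minutes of a stimulus, were often higher. Of 23 measured, 9 rose, none fell and the median was 0.63, with 5 to 10 rises when 1 mouse was left out (5 without KO505). The mean level over the list was 7.44 to 7.96 log2 in LIRKO and 6.79 to 7.30 in IR floxed livers, so the groups were apart. List means were apart for several other lists as well. Among them were FoxO1 targets (10.13 to 10.32 in LIRKO and 9.67 to 9.87 in IR floxed livers). Stellate and matrix markers were another (7.33 to 7.41 and 6.92 to 7.24), though none of them passed. Nr4a1, a nuclear receptor of this class, had 9.52, 9.02 and 8.87 log2 in LIRKO livers, against 7.32, 6.65, 7.07 and 8.46 in IR floxed livers (1.84 ± 0.25, adjusted p = 1.98e-05). Klf6, a zinc finger factor, had 9.40, 8.94 and 10.02 log2 in LIRKO livers, against 8.07, 7.56, 7.70 and 8.79 in IR floxed livers (1.43 ± 0.21, adjusted p = 6.07e-05). Maff, a small Maf factor, had 9.90, 8.18 and 9.40 log2 in LIRKO livers, against 7.26, 6.31, 6.25 and 7.79 in IR floxed livers (2.43 ± 0.48, adjusted p = 0.00193). For all 3, fl552 was the highest floxed mouse and still below every LIRKO mouse.

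Nr4a2 (0.96 ± 0.18, adjusted p = 0.00111) and Ier3 (0.98 ± 0.20, adjusted p = 0.00285) passed as well, from floxed values that were all at the low end of the scale (5.54 to 5.83 and 5.36 to 5.67). Junb (0.61 ± 0.14, adjusted p = 0.00531, but 0.196 without KO505) and Egr2 (0.24 ± 0.06, adjusted p = 0.0213; lost without KO505 at 0.369, KO550 at 0.124 or fl486 at 0.129) lay there in both groups but for 1 floxed value of Junb. Fos was 5.93 to 8.07 in LIRKO and 5.58 to 6.12, all at the low end, in IR floxed livers (1.23 ± 0.36, adjusted p = 0.0334), lost in 5 of 7 fits (0.0613 to 0.537, the last without KO505). Ier2 (0.64 ± 0.20, adjusted p = 0.0438) was lost in 6 of 7 (0.0565 to 0.436). Klf10, a further zinc finger factor, which also responds to glucose, had 10.05, 9.71 and 9.99 log2 in LIRKO livers, against 8.73, 8.01, 8.48 and 7.82 in IR floxed livers (1.57 ± 0.27, adjusted p = 0.000483). It and Txnip are the 2 rises among 8 ChREBP-linked genes (median 0.23).

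None of 19 endoplasmic reticulum chaperones passed, 14 of them with a positive difference (median 0.20). None of 9 cytosolic heat shock genes passed either, but all 9 had a positive difference (median 0.52). Their mean level was 11.69 to 11.97 log2 in LIRKO and 10.91 to 11.54 in IR floxed livers, without overlap. As said for the early genes, list means of other lists were apart too, so this is a description only. Where 4.14% of all genes rose, 2 of 24 ATF4 stress genes did, the serine synthesis enzyme Psat1 (1.44 ± 0.30, adjusted p = 0.00301, but 0.0738 without KO505) and the factor Atf3 (1.19 ± 0.27, adjusted p = 0.00599, but 0.0937 without KO550), both from floxed values all at the low end. A second, dimmer probe of Psat1 did not show the rise (0.07, at means of 5.47 in LIRKO and 5.40 in IR floxed livers). Of 18 Nrf2 targets 1 rose. That gene, Osgin1, an inhibitor of growth under oxidative stress, had 13.81, 12.62 and 12.38 log2 in LIRKO livers, against 9.89, 10.81, 10.34 and 9.89 in IR floxed livers, well apart (2.86 ± 0.44, adjusted p = 0.000128, 7.25-fold). Among 10 metallothioneins and glucocorticoid-induced genes 2 fell (median -0.35), Tsc22d3 (-1.23 ± 0.37, adjusted p = 0.0389; lost without KO505 at 0.153, KO545 at 0.164 or fl486 at 0.31) and Fkbp5 (-0.81 ± 0.26, adjusted p = 0.0493; lost in 6 of 7 fits at 0.0642 to 0.36). Hlf, an output factor of the clock, was the single fall among 17 clock genes, with 8.50 to 8.73 in LIRKO and 8.94 to 9.75 in IR floxed livers (-0.82 ± 0.20, adjusted p = 0.00815).

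Oncofetal and injury genes are low in adult liver, and 5 of 14 rose (median 0.10, 2 to 5 with 1 mouse left out). Afp, the fetal serum protein, had 8.35, 6.84 and 8.05 log2 in LIRKO livers, against 6.36, 5.99, 5.73 and 5.88 in IR floxed livers (1.79 ± 0.24, adjusted p = 2.29e-05, all 10 probes positive). H19, an imprinted noncoding RNA, was 7.62 to 11.90 in LIRKO and 5.38 to 7.68 in IR floxed livers (3.36 ± 0.70, adjusted p = 0.003, but 0.145 without KO505), and its second probe did not show the difference. For both Afp and H19, 3 of 4 floxed values lay at the low end of the scale. Tff3, a secreted trefoil peptide, was 10.91 to 13.92 in LIRKO and 6.78 to 10.14 in IR floxed livers (3.37 ± 1.0, adjusted p = 0.0347; lost in 5 of 7 fits at 0.059 to 0.371). Ly6d (1.51 ± 0.44, adjusted p = 0.0319) and the annexin Anxa2 (1.09 ± 0.31, adjusted p = 0.0264) rested most on KO550 (0.343 and 0.341 without it) and were each lost in 4 of 7 fits, the lowest p of these being 0.0595 for Ly6d and 0.0588 for Anxa2.

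Of 22 ribosome biogenesis genes 3 rose, none fell and 20 had a positive difference (median 0.32). Gnl3, the nucleolar GTPase nucleostemin, was 8.78 to 9.0 in LIRKO and 7.93 to 8.27 in IR floxed livers (0.83 ± 0.20, adjusted p = 0.00838). Nop2, an rRNA methyltransferase, was higher by 0.84 ± 0.21 (adjusted p = 0.0109; lost without KO505 at 0.0695 or KO550 at 0.0633), and Nop58, a box C/D particle protein, by 0.61 ± 0.17 (adjusted p = 0.0245; lost in 5 of 7 fits at 0.0549 to 0.0966). Of 18 cell cycle genes 3 rose and 2 fell (median 0.04). The rises were the replication helicase subunits Mcm3 (1.16 ± 0.23, adjusted p = 0.00168), Mcm2 (1.16 ± 0.25, adjusted p = 0.00404, but 0.0587 without KO550) and Mcm5 (1.14 ± 0.34, adjusted p = 0.0368; lost in 6 of 7 fits at 0.0572 to 0.347). All floxed values of Mcm5 and 3 of 4 of Mcm2 lay at the low end of the scale. The falls were Birc5 (-0.96 ± 0.21, adjusted p = 0.00404) and the thymidine kinase Tk1 (-1.33 ± 0.36, adjusted p = 0.0206; lost in 4 of 7 fits at 0.0512 to 0.0871). Only the brightest of 3 Birc5 probes showed the fall (-0.94), and its LIRKO values all lay at the low end of the scale. The other probes differed by -0.01 and 0.04, at group means of 5.31 to 5.54.

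Outside these lists, the largest rise was Slpi, a secreted inhibitor of neutrophil elastase. Slpi had 11.30, 11.20 and 11.34 log2 in LIRKO livers, against 7.17, 7.44, 6.62 and 6.67 in IR floxed livers (4.33 ± 0.45, adjusted p = 4.69e-07, 20.2-fold). Its LIRKO values were nearly identical and all lay more than 3 log2 above the floxed mice. Cd63, a tetraspanin of lysosomes, had 11.78, 11.69 and 13.58 log2 in LIRKO livers, against 9.18, 8.86, 8.78 and 9.43 in IR floxed livers (3.09 ± 0.34, adjusted p = 1.54e-06). The Cdc42 effector Cdc42ep5 (3.01 ± 0.37, adjusted p = 5.85e-06), the tubulin Tuba8 (2.98 ± 0.54, adjusted p = 0.000723), the keratin Krt23 (2.89 ± 0.62, adjusted p = 0.00378), Ifi27l2b (2.76 ± 0.38, adjusted p = 3.49e-05) and Igdcc4 (3.19 ± 0.48, adjusted p = 0.000101) were the others of the 12 largest rises not yet named. Igdcc4 lay at the low end in all floxed mice (5.43 to 5.74) and in KO545 (6.61), with 10.05 and 9.18 in the other LIRKO mice.

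Ces1f, Nat8 and Ugt2a3 were among the largest falls beside Cyp7a1 and Slc10a2. Ces1f, a carboxylesterase, had 8.82, 10.81 and 8.70 log2 in LIRKO livers, against 12.34, 12.93, 13.29 and 13.06 in IR floxed livers (-3.49 ± 0.44, adjusted p = 9.43e-06), and its near copy Ces1e was lower too (-2.66 ± 0.43, adjusted p = 0.000225), though probes of both may share signal. Nat8, an N-acetyltransferase, had 7.13, 7.90 and 6.49 log2 in LIRKO livers, against 10.80, 10.66, 10.88 and 9.89 in IR floxed livers (-3.41 ± 0.44, adjusted p = 1.51e-05). Ugt2a3, a glucuronosyltransferase, had 8.46, 9.78 and 8.85 log2 in LIRKO livers, against 11.66, 12.00, 11.93 and 11.67 in IR floxed livers (-2.87 ± 0.29, adjusted p = 4.02e-07). In all 3 the groups were separated by more than 1 log2. The uridine phosphorylase Upp2 (-2.80 ± 0.54, adjusted p = 0.0013), Fam25c (-2.80 ± 0.44, adjusted p = 0.000177), the replication factor Mcm10 (-2.66 ± 0.36, adjusted p = 2.1e-05) and the apolipoprotein Saa4 (-2.63 ± 0.42, adjusted p = 0.000189) followed. Trav7d-2, annotated as a T cell receptor segment, was also among them (-2.99 ± 0.49, adjusted p = 0.000301), but its second probe did not show a difference.

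Markers of other cell types were compared to check the tissue. Hepatocyte markers were near the top of the scale, with list means of 14.9 to 15.1 in LIRKO and 15.15 to 15.2 in IR floxed livers, and Alb at 15.75 to 15.97 in LIRKO and 15.88 to 15.96 in IR floxed livers was saturated in nearly all. Of 9 such markers 1 fell, the thyroxine carrier Ttr (-1.06 ± 0.28, adjusted p = 0.0162; lost without KO550 at 0.16 or fl486 at 0.0794). All 13 Kupffer cell and macrophage markers had a positive difference (median 0.32) and none passed, with list means of 8.56 to 8.81 in LIRKO and 8.16 to 8.51 in IR floxed livers. Clec4f, which defines Kupffer cells, was 10.83 to 11.38 in LIRKO and 10.19 to 10.44 in IR floxed livers (adjusted p = 0.118). Their part in the rises of Slpi, Cd63 and the early genes was not tested. None of 9 endothelial and none of 12 stellate or matrix markers passed, and of 8 T and NK cell markers 1 did, Cd3e (-0.55 ± 0.16, adjusted p = 0.0263; lost in 4 of 7 fits at 0.0731 to 0.159).

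2 IR floxed mice stood apart in particular genes. Exocrine pancreas markers averaged 9.23 log2 in fl486, against 6.06 to 6.50 in the other floxed mice, with Cpa1 at 11.28 and Ctrb1 at 12.18, and LIRKO mice averaged 5.92 to 6.73. None of the 4 pancreas markers passed. Acute phase genes averaged 13.6 log2 in fl491, against 11.95 to 12.4 in LIRKO and 12.0 to 12.6 in the other floxed mice. Saa1 and Saa2 were at 15.98 in that mouse, saturated, and neither passed (adjusted p = 0.312 and 0.263). The 1 fall among 20 acute phase genes was Crp (-0.93 ± 0.21, adjusted p = 0.00492), lost without KO550 (0.0579) or fl486 (0.0534).

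The fasted effect recurred in large part in refed and glucose-treated mice, all of them other animals. Of the 930 genes higher in fasted LIRKO, 547 were also higher in refed LIRKO, which is 58.8% of the fasted and 35.0% of the 1562 refed genes, where 6.95% of all genes were higher and 11.6% passed in either direction. After glucose 421 of them were higher (45.3% of the fasted and 42.7% of the 985 glucose genes, background 4.38%, and 8.3% in either direction). Of the 882 lower genes, 429 were lower refed (48.6%, and 40.9% of 1048, background 4.66%) and 363 after glucose (41.2%, and 41.2% of 881, background 3.92%). Opposite calls were 4 in all, genes higher in fasted and lower in refed LIRKO. In all 3 states 328 genes were higher and 254 lower. Another 290 higher and 344 lower genes passed in the fasted state without passing in the same direction in either other state. That does not show that the effects differ.

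The test of the difference itself named few genes. Between the fasted and the refed effect 37 genes differed (0.165% of 22485), 15 with a more positive (0.0667%) and 22 with a more negative (0.0978%) fasted effect, and with 1 mouse left out the count ran from 3 (without KO505) to 66 (without the refed floxed mouse fl566). Between the fasted and the glucose effect limma named 0, with 1542 at an unadjusted p under 0.05 and 48 when the glucose-treated floxed mouse fl659 was left out. For the classical targets this test did not pass, although their separate results look unlike. G6pc differed by -0.56 ± 0.45 fasted, by 1.62 ± 0.41 refed and by 2.18 ± 0.48 after glucose, and the fasted minus refed difference was -2.18 (adjusted p = 0.174). Pck1 differed by -0.04 ± 0.45 fasted, 1.41 ± 0.41 refed and -0.72 ± 0.48 after glucose (fasted minus refed -1.45, adjusted p = 0.497). Igfbp1, saturated in LIRKO mice in these states as well (means 15.95 refed and 15.95 after glucose), had 13.86, 10.29 and 13.83 in fasted, refed and glucose-treated IR floxed livers.

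Among genes named by the test of fasted minus refed, Pdk4 had a larger effect fasted than refed (3.78 against 1.43, a difference of 2.35 ± 0.44, adjusted p = 0.0221). Pdk4 averaged 11.06 ± 0.40 in fasted LIRKO and 7.24 ± 0.57 in fasted IR floxed livers, against 7.66 ± 0.37 in refed LIRKO and 6.49 ± 0.45 in refed IR floxed livers (SD). Its values lay on shared low values in 2 of 4 refed and 1 of 4 fasted IR floxed livers. Both effects of Pdk4 may therefore be too small, and how this alters their difference was not tested. Tnfrsf12a, the receptor of the cytokine TWEAK, had 10.54, 10.13 and 11.10 log2 in LIRKO livers, against 8.41, 8.70, 8.72 and 8.11 in IR floxed livers. Its effect was 2.16 ± 0.22 fasted and 0.46 refed (difference 1.70 ± 0.30, adjusted p = 0.0163). Osgin1 differed by 2.86 fasted and 0.04 refed (difference 2.82 ± 0.58, adjusted p = 0.0394), and Hilpda by 1.75 and 0.66 (difference 1.09 ± 0.22, adjusted p = 0.0357). Nat8f5, a relative of Nat8 whose probes may share signal with it, differed by -2.09 fasted and -4.29 refed (difference 2.19 ± 0.37, adjusted p = 0.0128). Its LIRKO values lay at the low end in both states (means 5.96 fasted and 5.85 refed, on shared values in 2 of 3 and 4 of 4 mice), so both falls may be too small, and the floxed means were 8.06 fasted and 10.04 refed. The F-box protein gene Fbxo21 (-0.38 fasted, 1.44 refed, difference -1.82 ± 0.27, adjusted p = 0.00214), the transporter gene Flvcr2 (-0.17 and 1.27, -1.45 ± 0.22, adjusted p = 0.00214) and the chemokine receptor gene Ccr3 (-0.27 and 0.96, -1.24 ± 0.18, adjusted p = 0.00172) passed as higher in refed LIRKO and did not pass in the fasted comparison. Ccr3 lay on shared low values in all 7 fasted mice (5.79 to 6.01 in LIRKO and 6.14 to 6.27 in IR floxed livers), so its fasted effect was not measurable. All but Ccr3 lost this call when KO505 was left out (adjusted p = 0.0701 for Pdk4, Fbxo21 and Flvcr2, 0.0984 for Tnfrsf12a, 0.541 for Osgin1, 0.17 for Hilpda and 0.205 for Nat8f5, and 0.017 for Ccr3).

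**Figure D4:**
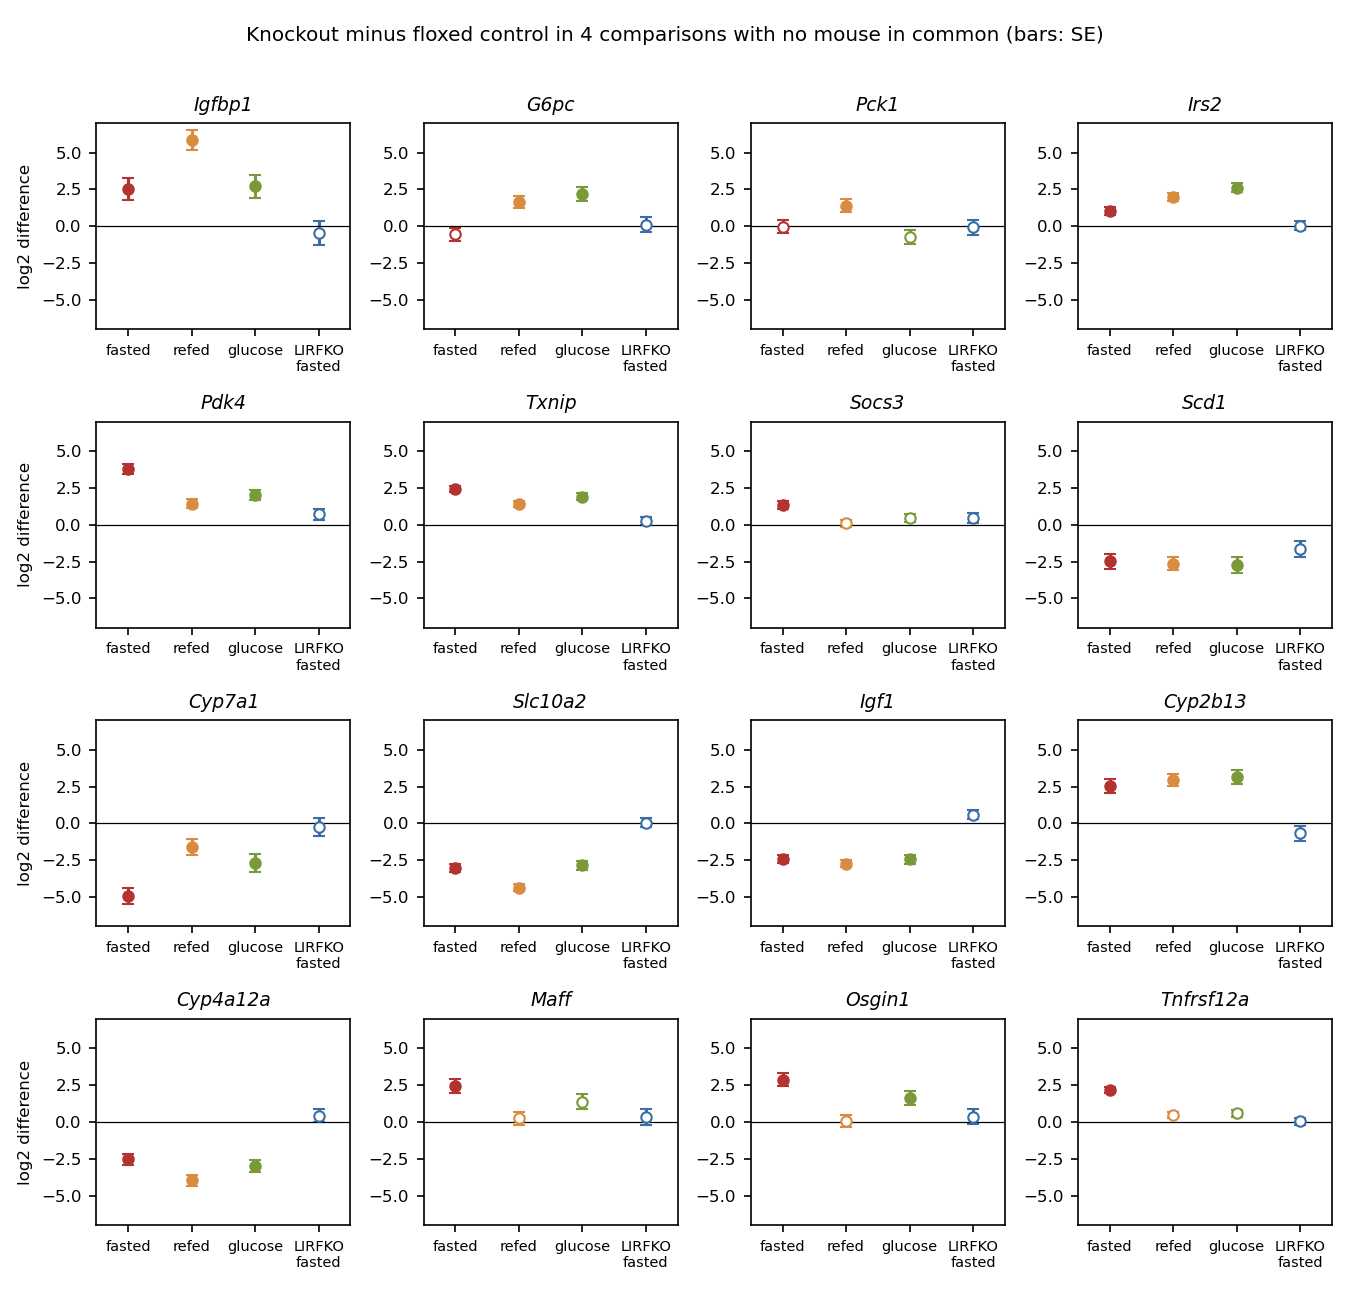
Difference between knockout and floxed livers (log2 ± SE, vertical axis) for 16 genes, from left to right for LIRKO fasted, refed and after glucose and for fasted LIRFKO against IR/FoxO1 floxed, with filled points at an adjusted p under 0.05. Pdk4 is at 3.78 fasted against 1.43 refed, G6pc at -0.56 against 1.62, and in the LIRFKO pair, with fl523 included, Txnip is at 0.26, Slc10a2 at 0.04 and Scd1 at -1.64.

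The pair in which FoxO1 was deleted as well gave other values with than without 1 library. Foxo1 was 6.81 to 7.12 log2 in fasted LIRFKO and 6.77 to 10.57 in fasted IR/FoxO1 floxed livers, and Insr was 6.45 to 6.81 in LIRFKO and 6.90 to 8.27 in IR/FoxO1 floxed livers. The lowest floxed value of both genes is from the library labelled IR/FoxO1 floxed fl523, which goes against its label. Counts of this pair and the values of Insr and Foxo1 are therefore given with and without it. Other values that use this pair include it unless said otherwise. With it 1 of 22485 genes passed (0.00445%), with 819 at an unadjusted p under 0.05. That gene, 1700113H08Rik (0.96 ± 0.16, adjusted p = 0.0304), is named after its value was seen. Insr differed by -0.99 and Foxo1 by -2.44, neither passing. Without fl523 limma named 9 genes (0.04%), 3 higher and 6 lower in LIRFKO, with 1085 at an unadjusted p under 0.05. Insr then differed by -1.39 ± 0.22 (adjusted p = 0.00563) and Foxo1 by -3.56 ± 0.22 (adjusted p = 1.66e-10).

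With fl523, of the 930 genes higher in fasted LIRKO, 583 had a positive difference in this pair (62.7%, against 49.4% of all genes) with a median of 0.04, and of the 882 lower ones 570 had a negative one (64.6%, against 50.6%) with a median of -0.06. Without it these were 665 (71.5%, against 49.7%) with a median of 0.09, and 608 (68.9%, against 50.3%) with a median of -0.10. The test of LIRKO effect minus LIRFKO effect named 210 genes (0.934%), 109 more positive (0.485%) and 101 more negative (0.449%) in LIRKO, and 204 of them were called in the fasted LIRKO comparison. That count was 129 without fl523 and ran from 96 (without KO550) to 288 with 1 mouse left out.

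The clearest of these differences were at Slc10a2, Igf1, Dcp1b, Hilpda and Enc1. Slc10a2 differed by -3.03 in LIRKO and 0.04 in LIRFKO (difference -3.07 ± 0.38, adjusted p = 0.00015). Igf1 differed by -2.41 and 0.58 (difference -2.99 ± 0.38, adjusted p = 0.000166), with 11.19 ± 0.75 in LIRKO and 13.53 ± 0.32 in IR floxed livers, against 13.47 ± 0.17 in LIRFKO and 13.07 ± 0.17 in IR/FoxO1 floxed livers (SD). Hilpda differed by 1.75 and 0.06 (1.70 ± 0.23, adjusted p = 0.00035). Dcp1b, an mRNA decapping cofactor, had 9.35, 9.11 and 9.19 log2 in LIRKO livers, against 8.23, 8.02, 8.44 and 7.73 in IR floxed livers. Its effect was 1.11 ± 0.11 in LIRKO and -0.05 in LIRFKO (1.16 ± 0.16, adjusted p = 0.000294). Enc1, a kelch protein that binds actin, had 9.22, 9.97 and 9.95 log2 in LIRKO livers, against 7.93, 7.68, 7.88 and 7.68 in IR floxed livers, and all 10 probes were positive. Its effect was 1.87 ± 0.16 in LIRKO and 0.22 in LIRFKO (1.65 ± 0.23, adjusted p = 0.000381). All 5 were kept with each mouse of the 4 groups left out in turn. Without fl523 the differences were -3.34 for Slc10a2, -2.95 for Igf1, 1.61 for Hilpda, 1.25 for Dcp1b and 1.68 for Enc1.

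Pdk4 (3.78 in LIRKO and 0.72 in LIRFKO, difference 3.06 ± 0.47, adjusted p = 0.000633), Txnip (2.44 and 0.26, 2.17 ± 0.32, adjusted p = 0.000467) and Cyp7a1 (-4.94 and -0.24, -4.69 ± 0.81, adjusted p = 0.00227) differed in the same way and were also kept in each of those fits. Without fl523 the LIRFKO values were 0.82 for Pdk4, 0.53 for Txnip and -0.45 for Cyp7a1. The value of Txnip then had an unadjusted p = 0.0466 in limma and did not pass after adjustment. In the same order of genes the differences without fl523 were 2.97, 1.93 and -4.51. For Igfbp1 (2.53, with LIRKO saturated, and -0.44, adjusted p = 0.214) and Irs2 (1.05 and 0.03, adjusted p = 0.287) the difference did not pass. Scd1 had negative values in both pairs (-2.49 in LIRKO and -1.64 in LIRFKO, the second at an unadjusted p = 0.00699 and not passing after adjustment, difference -0.85, adjusted p = 0.706). Without fl523 the LIRFKO value of Scd1 was -2.13 ± 0.59 (adjusted p = 0.498). Slpi had positive values in both (4.33 in LIRKO and 1.69 in LIRFKO, or 2.08 in LIRFKO without fl523). Its difference of 2.64 ± 0.64 (adjusted p = 0.0414) was lost in 10 of the fits with 1 mouse left out and without fl523 (0.133).

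Fasted LIRFKO livers were also set directly against the 3 fasted LIRKO livers, the same mice as above, so the values are given side by side only. There 1463 genes passed (6.51%), 737 higher in LIRFKO (3.28%) and the rest lower (3.23%). The count was 499 without KO550, 526 without the LIRFKO mouse DKO518, 965 without KO505 and 80 with only these groups in the model. Igf1 was higher by 2.52 ± 0.29, Slc10a2 by 2.70 ± 0.29 and Cyp7a1 by 4.30 ± 0.60 in LIRFKO. Pdk4 was lower by -2.83 ± 0.35, while G6pc did not differ detectably (-0.01 ± 0.48, adjusted p = 0.994). Igfbp1 averaged 13.47 ± 1.08 in LIRFKO and 15.96 ± 0.05 in LIRKO livers (SD, n = 3 each). All 3 LIRKO values are saturated, so the difference of means, -2.49 log2, is a bound, at least 5.61-fold lower (adjusted p = 0.0106 in the fit).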

How the data were processed

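Liver RNA (200 ng per mouse, per the labels) was hybridised to 2-colour arrays, and each dye channel was deposited as a sample. The authors' deposited values are log2 intensities of 45220 features in 38 columns, with limma 3.20.1 under R 3.1.0 listed in the submitters' processing notes. How background was corrected and columns were normalized is not given there or in the labels. The authors' annotation gave 33026 features 1 gene and 12194 none. The feature with the highest mean over all columns stood for each of 22485 genes. Features of a gene are called its probes, and whether they differ in sequence was not analysed. Agreement among the probes of a gene is therefore not independent support. Values above 15.8 were called saturated.

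A limma 3.58.1 model (statmod 1.5.0, R 4.3.3) held 37 samples in 11 groups, adjusted for dye, with the 20 arrays as random blocks (correlation 0.358). The column whose labels conflict was in no group. The Benjamini-Hochberg threshold was 0.05. Fits with 1 mouse left out are the 7 that omit a fasted LIRKO or IR floxed mouse, and for differences all mice of the groups compared. On simulated data the model was tested before use. The text names the 12 largest rises and 12 largest falls among genes above a level of 7 with separate groups (predicted gene models passed over), key genes of insulin action, the 4 members of each list with the smallest p, the 5 genes with the smallest p in each difference, and any list member where its list is described. Members and lists were chosen with earlier results of these data known. The number of mice limits the precision.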

Additional observations from a re-analysis of the deposited data

Results flagged for a closer look

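Single IR floxed mice stood far from the other 3 in 5 of 135 genes and 2 of 44 lists, where chance marks about 1 group in 20. Mouse fl491 had Foxo1 at 9.98 log2 (others 10.44 to 10.5) and the mean of FoxO1 targets at 9.67 (others 9.85 to 9.87). Mouse fl486 had Scd1 at 12.55 (others 11.36 to 11.56) and exocrine pancreas markers at 9.23 (others 6.06 to 6.5). Mouse fl552 had Tm7sf2 at 12.41 (others 12.77 to 12.84), Cyp2b13 at 8.16 (others 5.38 to 5.74) and Prodh at 13.0 (others 13.46 to 13.49).

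The fasted effect of receptor loss differed from the refed effect, by a test of the difference in limma, at 8 named genes. Fasted minus refed was 2.35 for Pdk4, 1.09 for Hilpda, 2.82 for Osgin1, 2.19 for Nat8f5 and 1.70 for Tnfrsf12a. It was -1.82 for Fbxo21, -1.45 for Flvcr2 and -1.24 for Ccr3. LIRKO values of Nat8f5 and all fasted values of Ccr3 lay at the low end of the scale, as did 2 of 4 refed IR floxed values of Pdk4. Without KO505 the difference passed for Ccr3 and for none of the other 7.

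The fasted LIRKO effect differed from the fasted LIRFKO effect at 41 named genes, with fl523 included. Among metabolic and signalling genes, LIRKO minus LIRFKO effect was 3.06 for Pdk4, 2.17 for Txnip, -1.25 for Pik3r1, -1.52 for Acss2, -0.96 for Ebp, -1.52 for Kynu, 2.22 for Acot2, 1.70 for Hilpda and 1.86 for Plin2. Among bile acid and hormone axis genes it was -4.69 for Cyp7a1, -3.89 for Cyp7b1, -3.07 for Slc10a2, -2.99 for Igf1 and -1.63 for Ghr. Among P450 and other drug enzymes it was -2.97 for Cyp4a12a, -2.93 for Cyp4a12b, 3.29 for Cyp2b9, 3.21 for Cyp2b13, -1.85 for Aldh1a1, -3.31 for Ces1f, -3.87 for Nat8, -2.11 for Nat8f5 and -2.91 for Ugt2a3. Among early, stress and growth genes it was 1.46 for Nr4a1, 1.37 for Klf6, 1.63 for Klf10, 2.49 for Osgin1, 1.76 for Afp, 1.48 for Mcm2, 1.61 for Mcm3 and -2.59 for Mcm10. For the others it was 2.64 for Slpi, 3.69 for Igdcc4, 2.63 for Cd63, 2.23 for Cdc42ep5, 2.68 for Ifi27l2b, -2.94 for Trav7d-2, -3.62 for Fam25c, 2.13 for Tnfrsf12a, 1.16 for Dcp1b and 1.65 for Enc1. Of the 41, 22 lost the call with some mouse left out, 16 lost it without fl523, and 19 kept it with every mouse of the 4 groups left out in turn. Those lost without fl523 were Pik3r1, Ebp, Kynu, Acot2, Plin2, Ghr, Cyp2b9 and Aldh1a1. Nr4a1, Klf6, Klf10, Osgin1, Mcm2, Slpi, Cdc42ep5 and Trav7d-2 were the rest of the 16.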

How the results depend on the processing

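Of 135 genes named, 120 passed, 41 of them in every fit, and none reversed. With 1 mouse left out 58 lost the call in at least 1 fit, most often without KO550 (46), KO505 (38) or fl486 (38), and 69 lost it with only the 7 mice in the model. The fasted comparison called 557 genes with only its groups in the model and 1200 with no array block and no dye term, where fasted minus refed gave 6 and 5, LIRKO minus LIRFKO effect 120 and 71, and LIRFKO against LIRKO 80 and 822. Slide as a block gave 16 for fasted minus refed, and leaving out fl523 gave 129 for LIRKO minus LIRFKO effect. Leaving out 1 mouse gave 1041 to 1601 genes for the fasted comparison, 3 to 66 for fasted minus refed, 0 to 48 for fasted minus glucose, 96 to 288 for LIRKO minus LIRFKO effect (117 without LIRFKO mouse DKO518) and 499 to 1494 for LIRFKO against LIRKO. LIRFKO against IR/FoxO1 floxed, whose settings were chosen after seeing the data, gave 1 gene, 9 without fl523, 0 to 9 with 1 mouse left out, and 0 with only its groups, with no array block and no dye term, with slide as a block and with the filter on dim genes. Fits with fewer samples have fewer degrees of freedom, and for the other settings the cause was not tested. Quantile normalization, median centring, the mean of all probes, the filter on dim genes and the robust trended prior kept the other 5 counts within 1.5 times. No paired analysis was possible because the mouse numbers are unique to each mouse, so no number is shared across groups. Arrays and slides do hold mice of several groups, and arrays are the random block of every fit but the one without it. Signals at the shared low values and at saturation limit the size of differences that reach them.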
